A study of Mus musculus with 14 samples.

Results

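The genes of bile acid synthesis were measured in livers of 14 mice, and the 10 genes described here are Cyp7a1, Cyp8b1, Cyp27a1, Cyp7b1, Cyp39a1, Akr1d1, Hsd3b7, Slc27a2, Slc27a5 and Baat. They were chosen by name, and each was read by 1 probe set of the array, so that 10 of the 19505 genes named on the array, and 10 of its 22206 probe sets, are described. The mice were male C57BL/6N mice aged 10 weeks that all wore adjustable clothes from the chest to the waist, fitted under brief isoflurane anesthesia. In the compression group (n = 7) the clothes were tightened to reduce the waist, and in the no-compression group (n = 7) they were worn without added compression. The livers were collected 8 hours after the load, in the light phase, when mice are mostly inactive, from mice with free access to chow. Feeding was not equal, since the paper reports lower food intake and greater loss of body weight with compression over this period. Food intake thus differed between the groups together with compression, and its part in the values of the enzymes was not tested. Each sample was a piece of whole liver of 1 mouse on 1 Clariom S array, hybridized with labelled cDNA from 200 ng of total RNA. Values are on a log2 scale and came from the authors' qFarms quantification, a factor model under which probe sets whose probes share no variation end up nearly constant. A value of 1 on this scale is a doubling, and values of different probe sets cannot be set against each other as amounts.

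Hepatocytes turn cholesterol into bile acids, which are excreted in bile and solubilize fat in the gut. In the classic pathway Cyp7a1 hydroxylates the sterol ring of cholesterol in the rate-limiting step, and Cyp8b1 adds the further hydroxyl group that makes the product cholic acid, so its activity sets the ratio of cholic acid to the other primary bile acids. In the alternative pathway Cyp27a1 oxidizes the side chain first, and Cyp7b1 hydroxylates the ring of the resulting oxysterols. Cyp39a1 does the same for another oxysterol, and Cyp27a1 also serves the side chain in the classic pathway. The later steps are shared. Hsd3b7 and Akr1d1 modify the ring system, Slc27a2 and Slc27a5 are acyl-CoA synthetases that activate the side chain or recycled bile acids, and Baat joins the bile acid to taurine or glycine. Bile acids returning to the liver repress Cyp7a1 and Cyp8b1 through the receptor FXR (Nr1h4) and its target SHP (Nr0b2), and Cyp7a1 follows a daily rhythm.

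RefSeq promoter sequences were found for 5 of the 10 genes (Cyp8b1, Cyp27a1, Akr1d1, Hsd3b7 and Slc27a2) and not for Cyp7a1, Cyp7b1, Cyp39a1, Slc27a5 and Baat. The 250 bases before the start of 3 of them are shown, because Cyp8b1 had the largest difference between the groups, Cyp27a1 opens the alternative pathway and Slc27a2 had the largest difference among the shared steps. All are from build GRCm38.p6 and written 5′ to 3′ on the strand of the gene, Cyp8b1 at chr9:121916306-121916555 on the minus strand, Cyp27a1 at chr1:74713285-74713534 on the plus strand and Slc27a2 at chr2:126552774-126553023 on the plus strand. Capitals mark matches to the searched motifs.
Cyp8b1: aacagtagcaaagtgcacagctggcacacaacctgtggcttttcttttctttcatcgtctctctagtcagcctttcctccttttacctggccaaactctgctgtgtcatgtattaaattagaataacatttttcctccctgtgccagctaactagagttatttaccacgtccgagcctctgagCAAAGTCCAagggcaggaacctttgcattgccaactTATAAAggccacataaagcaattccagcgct
Cyp27a1: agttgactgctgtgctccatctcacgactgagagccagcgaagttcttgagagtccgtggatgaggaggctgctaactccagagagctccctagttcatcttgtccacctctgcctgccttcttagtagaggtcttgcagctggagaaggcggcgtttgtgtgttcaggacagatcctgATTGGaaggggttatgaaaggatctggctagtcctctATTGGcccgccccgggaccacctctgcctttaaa
Slc27a2: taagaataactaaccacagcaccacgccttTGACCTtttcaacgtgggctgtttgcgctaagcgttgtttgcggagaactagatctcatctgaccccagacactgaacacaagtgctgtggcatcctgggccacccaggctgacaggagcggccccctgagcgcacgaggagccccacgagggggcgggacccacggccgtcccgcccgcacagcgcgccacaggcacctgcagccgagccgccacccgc
The motifs were searched on both strands. The promoter of Cyp8b1 held TATAAA, the TATA box, with its first base at -31 from the start, and CAAAGTCCA, a motif bound by the nuclear receptor HNF4A, with its first base at -67. Of 32851 promoters 12.4% held TATAAA and 0.384% held CAAAGTCCA, a motif that was added after the sequence of Cyp8b1 was seen. AGGTCA, the core motif of many nuclear receptors, was found in 14% of promoters, in reverse once in Slc27a2 (first base at -220) and 2 times in Akr1d1 (first bases at -232 and -210). CCAAT, found in 33.8% of promoters, lay in reverse at -71 and -34 of Cyp27a1. Neither CAAGGTCA, the motif of the receptor LRH-1 (1.33% of promoters), nor the D-boxes TTATGTAA (0.819%) and TTACGTAA (0.113%), nor the E-box CACGTG (6.02%) was found in the 5 promoters, and CAAGGTCA contains AGGTCA. A match is a description of these letters and shows no binding.

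The 10 probe sets were all among the part of the table that varied between arrays. Over the 14 arrays a probe set varied with a median SD of 1.04e-05, since most were left almost constant by qFarms, and 1238 of 22206 had an SD above 0.01 and are called probe sets with spread. All 10 genes had spread. Among the probe sets with spread their SDs lay between percentile 6.30 (Slc27a5) and percentile 99.5 (Cyp8b1), with Hsd3b7 at 8.08. The SD of Cyp8b1 was 1.05, the seventh highest of the 22206, and the SDs of the others ran from 0.0450 for Slc27a5 to 0.406 for Cyp7b1. No-compression replicates 6, 3 and 7 stood apart from the other arrays. On principal component 1 (57.1% of the variance of the probe sets with spread) they had values of 16.7, 9.57 and 9.45, while the other 11 arrays lay between -6.73 and 2.25. Results are therefore also given without these 3 arrays. The array medians lay between 6.51 and 6.52. Alb, which hepatocytes secrete, was at 13.39 in both groups, but 5 of the 7 hepatocyte markers measured, Alb among them, had no spread, and their summed level (15.70 to 15.73 on the log2 scale over the 14 mice) gives no information on the share of hepatocytes. Apoa1 and Fgb, which had spread, differed by 0.019 and -0.023, and by -0.0060 and 0.054 without those 3 arrays. Fgb was at 12.78, 12.78 and 12.73 in no-compression replicates 3, 6 and 7, against at most 12.71 with compression. Apoa1 was at 12.99 in no-compression replicate 6, against at least 13.04 with compression.

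Cyp8b1 had a higher mean in the compression group, and Cyp7a1 differed little. Cyp8b1 had a mean log2 value of 9.67 ± 0.43 (SD, n = 7) in the compression group and 8.60 ± 1.23 (SD, n = 7) in the no-compression group. Its values ran from 8.89 to 10.19 with a median of 9.63 in the compression group. They ran from 6.25 to 9.73 with a median of 8.62 in the no-compression group. The no-compression group thus reached far lower, with 4 of its 7 mice below the lowest compression mouse, and 3 compression mice lay above the highest no-compression mouse. The ranges overlapped. In a bulk sample fewer cells of a type and less RNA per cell cannot be told apart. The highest liver held 15.4 times the level of the lowest. The log2 fold change was 1.07 (standard error 0.484, 95% interval 0.02 to 2.12), a 2.10-fold difference. In limma its unadjusted p was 0.0465 and its adjusted p was 0.943 with Benjamini-Hochberg adjustment over all 22206 probe sets, so that the difference did not pass the limit of 0.05. It was 0.68 without no-compression replicate 6 and 0.39 (95% interval -0.36 to 1.13) without no-compression replicates 3, 6 and 7.

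Cyp7a1, the rate-limiting enzyme, was at 11.65 ± 0.26 (SD, n = 7) in compressed mice and 11.49 ± 0.27 (SD, n = 7) in the others. Its values ran from 11.12 to 11.90 (median 11.72) and from 10.97 to 11.85 (median 11.56). Here the groups had almost the same spread, 1 no-compression mouse lay below all compression mice, and 1 compression mouse lay above all no-compression mice. The log2 fold change of Cyp7a1 was 0.15 (standard error 0.139, 95% interval -0.15 to 0.45, adjusted p = 0.979 from limma). It was 0.065 without no-compression replicate 6 and 0.24 without compression replicate 4, the compression mouse with the lowest Cyp7a1.

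**Figure D1:**
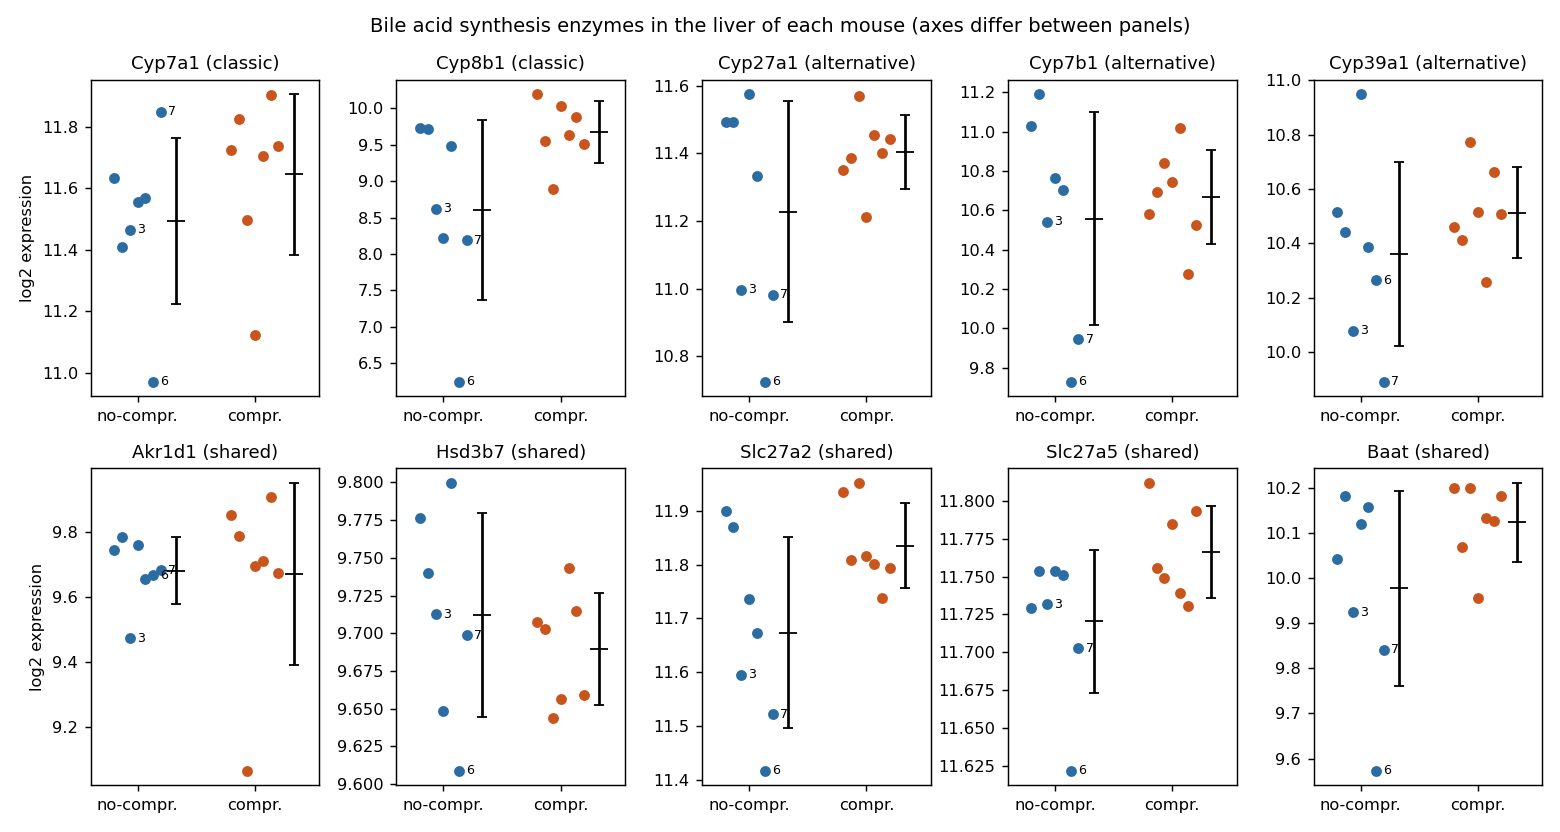
Log2 expression (vertical axes, which differ between panels) of the 10 enzymes in 7 no-compression mice (blue) and 7 compression mice (orange), 1 point per mouse, with the mean and SD of each group in black. The numbers 3, 6 and 7 mark those no-compression replicates, and no-compression replicate 6 is the lowest of the 14 mice in 8 of the 10 panels.

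The means of all 3 alternative-pathway enzymes were slightly higher with compression, and their no-compression values were more spread. Cyp27a1 was at 11.40 ± 0.11 (SD, n = 7) with compression, from 11.21 to 11.57 with a median of 11.40. Without compression it was at 11.23 ± 0.33 (SD, n = 7), from 10.72 to 11.58 with a median of 11.33. In the no-compression group 3 mice, replicates 6, 7 and 3, lay below all compression mice, and the highest of the 14 values, that of no-compression replicate 4, also belonged to it. The log2 fold change was 0.17 (standard error 0.128, adjusted p = 0.967 from limma).
Cyp7b1 ran from 10.28 to 11.02 (median 10.69, 10.67 ± 0.24, SD, n = 7) with compression and from 9.73 to 11.19 (median 10.70, 10.56 ± 0.54, SD, n = 7) without it. The no-compression mice lay on both sides of the compression range, 2 below it and 2 above it. Its log2 fold change was 0.11 (standard error 0.219, adjusted p = 0.986 from limma), with a 95% interval from -0.37 to 0.59. Cyp39a1 ran from 10.26 to 10.77 (median 10.51, 10.51 ± 0.17, SD, n = 7) with compression and from 9.89 to 10.95 (median 10.39, 10.36 ± 0.34, SD, n = 7) without it. Again 2 no-compression mice lay below the compression range and 1 above it. The log2 fold change of Cyp39a1 was 0.15 (standard error 0.140, adjusted p = 0.979 from limma).

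Set side by side, the classic pathway had log2 fold changes of 0.15 and 1.07 (median 0.61 of 2 genes) and the alternative pathway 0.17, 0.11 and 0.15 (median 0.15 of 3 genes), against a median of -0.0029 over the 1238 probe sets with spread. The larger median of the classic pathway came from Cyp8b1, since Cyp7a1 lay within the range of the 3 enzymes of the alternative pathway. Without no-compression replicates 3, 6 and 7 the classic genes were at 0.10 and 0.39, and the enzymes of the alternative pathway were at -0.070 for Cyp27a1, -0.25 for Cyp7b1 and -0.061 for Cyp39a1, that is, lower with compression. The medians were then 0.24 and -0.070. No test was made between the branches, because the genes were chosen with results known.

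**Figure D2:**
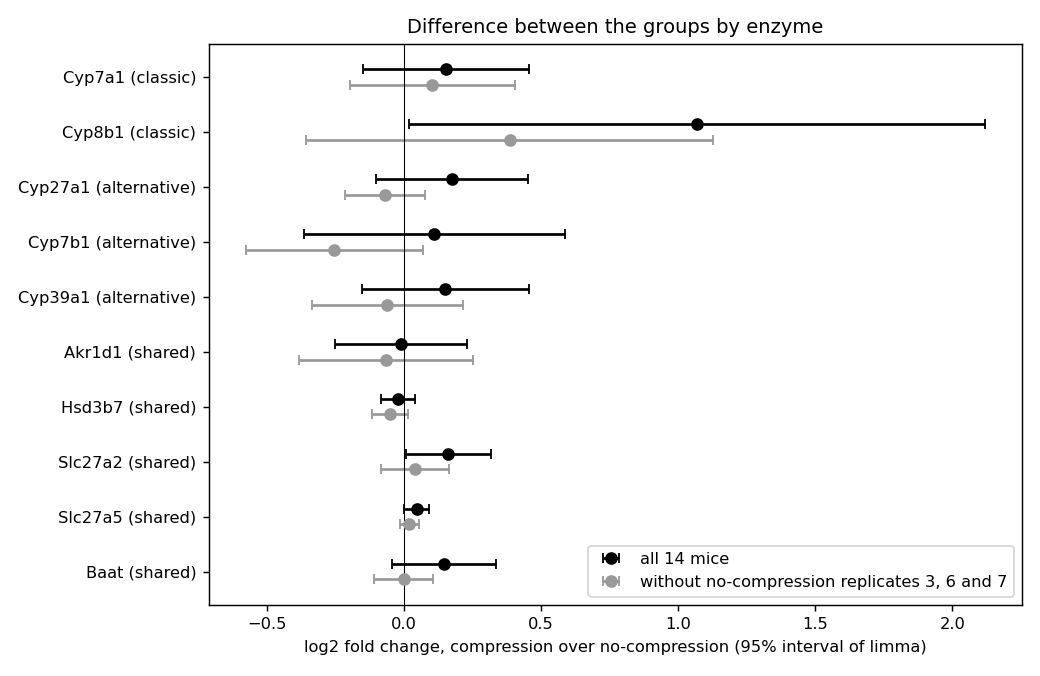
Log2 fold change of compression over no-compression (horizontal axis) with its 95% interval from limma for the 10 enzymes, over all 14 mice (black) and without no-compression replicates 3, 6 and 7 (grey). Cyp8b1 has the largest value and the widest interval, 0.02 to 2.12, and the 3 enzymes of the alternative pathway pass from above 0 to below 0 when these arrays are left out.

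Of the shared later steps, Slc27a2, Slc27a5 and Baat had higher means in the compression group, and Hsd3b7 and Akr1d1 did not. Slc27a2 was at 11.84 ± 0.08 (SD, n = 7) with compression, from 11.74 to 11.95 with a median of 11.81. Without compression it was at 11.67 ± 0.18 (SD, n = 7), from 11.42 to 11.90 with a median of 11.67. In the no-compression group 5 of 7 mice lay below all compression mice, and 2 lay near the top of the compression range. The log2 fold change of Slc27a2 was 0.16 (standard error 0.0720, 95% interval 0.01 to 0.32, adjusted p = 0.943 from limma). It was 0.040 without no-compression replicates 3, 6 and 7.
Slc27a5, the synthetase that recycles bile acids, varied little in either group. It ran from 11.73 to 11.81 (median 11.76, 11.77 ± 0.03, SD, n = 7) with compression and from 11.62 to 11.75 (median 11.73, 11.72 ± 0.05, SD, n = 7) without it. Its log2 fold change was 0.046 (standard error 0.0208, adjusted p = 0.943 from limma), a difference of 3.23%. Although small, it left 4 compression mice above all no-compression mice and 3 no-compression mice below all compression mice. It was 0.020 without no-compression replicates 3, 6 and 7.
Baat ran from 9.96 to 10.20 (median 10.13, 10.12 ± 0.09, SD, n = 7) with compression and from 9.57 to 10.18 (median 10.04, 9.98 ± 0.22, SD, n = 7) without it. Its log2 fold change was 0.15 (standard error 0.0868, adjusted p = 0.943 from limma), and without no-compression replicates 3, 6 and 7 it was -0.0015. The means of the remaining 4 no-compression mice and the compression mice were then almost equal, 10.12 and 10.12.
Hsd3b7, which acts early on the ring, ran from 9.64 to 9.74 (median 9.70, 9.69 ± 0.04, SD, n = 7) with compression and from 9.61 to 9.80 (median 9.71, 9.71 ± 0.07, SD, n = 7) without it, which left a log2 fold change at -0.022 (standard error 0.0286, adjusted p = 0.983 from limma). The compression values lay within the no-compression range. Its log2 fold change ran from -0.0079 without no-compression replicate 5 to -0.040 without no-compression replicate 6, and was -0.051 without no-compression replicates 3, 6 and 7. Akr1d1, the reductase of the sterol ring, ran from 9.07 to 9.91 (median 9.71, 9.67 ± 0.28, SD, n = 7) with compression and from 9.47 to 9.78 (median 9.68, 9.68 ± 0.10, SD, n = 7) without it. It was the only 1 of the 10 genes with the larger SD in the compression group, in which compression replicate 3 had the value 9.07 and the next was 9.67. Its log2 fold change was -0.0099 (standard error 0.111, adjusted p = 0.996 from limma) and 0.091 without compression replicate 3. With the 3 no-compression arrays that stood apart left out it was -0.065.

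Over the 10 genes 8 had a higher and 2 a lower mean in the compression group, with a median log2 fold change of 0.15, while 48.3% of the probe sets with spread had a higher and 51.7% a lower mean. Without no-compression replicates 3, 6 and 7 the split was 4 higher and 6 lower, with a median of -0.026. Of the probe sets with spread 46.0% then had a higher mean, with a median of -0.0038, so that the split was near theirs. In limma 0 of the 10 genes passed, as did 0% of all 22206 probe sets. An unadjusted p under 0.05 was found for 3 of the 10 genes (Cyp8b1, Slc27a2 and Slc27a5) and for 5.19% of all probe sets. That number was 0 without no-compression replicate 3, 6 or 7, and also without compression replicate 1, 2, 4 or 7. The rank products method that the study's methods name, with an FDR limit of 0.01, called 6 of the 10 genes as higher (Cyp7a1, Cyp8b1, Cyp39a1, Slc27a2, Slc27a5 and Baat) and 0 as lower. It called 1.31% of all probe sets as higher and 1.25% as lower, but 23.0% and 21.9% of those with spread, since it ranks folds without scaling them to the spread between mice and most of the table is almost constant. Run on the probe sets with spread alone, it called 0.242% of them as higher and 0 as lower, with Cyp8b1 alone of the 10 genes. With no-compression replicates 3, 6 and 7 left out it called 0.0856% of all probe sets as higher and 0.0495% as lower. It then called 0 of the 10 genes.

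For most of the genes the SD was larger in the no-compression group over all its mice, but not without replicates 3, 6 and 7. Over all 14 mice the SD was larger in the no-compression group for 9 of the 10 genes, with a median ratio of 2.14 to the SD of the compression group, and 66.4% of the probe sets with spread also had the larger SD there, with a median ratio of 1.38. The ratio was 2.99 for Cyp27a1, 2.89 for Cyp8b1 and 1.03 for Cyp7a1. Over the other 4 no-compression mice the SD was larger than with compression for 4 of the 10 genes (Cyp8b1, Cyp39a1, Hsd3b7 and Slc27a2), with a median ratio of 0.945, and for 26.4% of the probe sets with spread, with a median ratio of 0.687. The 3 mice were left out because they stood apart on these same values, and from 1 group only. The fall in the SD of that group therefore follows largely from the choice and is no separate result. No-compression replicate 6 had the lowest value of the 14 mice for 8 of the 10 genes, and lay below the compression mean for all 10. It was also the array farthest out on principal component 1 (16.7). How often it was lowest over all probe sets was not counted, so the 8 cannot be called particular to these enzymes. Its Cyp8b1 was 10.7 times lower than the compression mean, its Cyp7b1 1.92 times and its Cyp7a1 and Cyp27a1 both 1.60 times. Its Akr1d1, by contrast, differed from that mean by 0.004 on the log2 scale.
No-compression replicate 7 combined low Cyp8b1, Cyp7b1 and Cyp27a1 with the second highest Cyp7a1 of all mice. Its Cyp8b1 was 2.79 times and its Cyp7b1 1.65 times lower than the compression mean, and its Cyp7a1 was 1.15 times higher. No-compression replicate 3 was 2.07 times lower for Cyp8b1 and 1.35 times lower for Cyp39a1, and close to the compression mean for Hsd3b7. In all 3 of these mice Cyp8b1, Cyp27a1, Cyp7b1, Cyp39a1, Slc27a2, Slc27a5 and Baat lay below the compression mean. They were the 3 lowest of the 14 mice for Cyp27a1, Slc27a2 and Baat. For Cyp7a1, Akr1d1 and Hsd3b7 the direction was not the same in all 3. The other 4 no-compression mice were at 9.28 ± 0.72 (SD, n = 4) for Cyp8b1, where no-compression replicate 4 had a low value of 8.22. For Cyp27a1 they were at 11.47 ± 0.10 (SD, n = 4) and for Cyp7b1 at 10.92 ± 0.23 (SD, n = 4), both above the compression means of 11.40 and 10.67.

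Cyp8b1 and Cyp7a1 were both lowest in the same liver, and their correlation over mice turned on single livers. Over the 14 arrays Pearson's r was 0.479 (permutation p = 0.0842, adjusted p = 0.253 over 3 relations) and Spearman's rho was 0.204 (permutation p = 0.481, adjusted p = 0.963), all tests two-sided. Within the compression group r was -0.028 (exact permutation p = 0.943, adjusted p = 0.943) and rho was -0.036 (exact permutation p = 0.963, adjusted p = 0.963). Within the no-compression group r was 0.596 (exact permutation p = 0.175, adjusted p = 0.263) and rho was 0.214 (exact permutation p = 0.662, adjusted p = 0.963). Without the 2 arrays farthest from the median of Cyp7a1, no-compression replicate 6 and compression replicate 4, r over the remaining 12 was 0.206, so that the pooled value did not hold without them, and the 2 arrays moved it in opposite directions.
No-compression replicate 6 had the lowest value of both genes, 10.97 for Cyp7a1 and 6.25 for Cyp8b1, and without it r was -0.072. Compression replicate 4 had the second lowest Cyp7a1, 11.12, with the second highest Cyp8b1, 10.03, and without it r was 0.702 (permutation p = 0.0207). No-compression replicate 7 had the second highest Cyp7a1, 11.85, with the second lowest Cyp8b1, 8.19, and without it r was 0.606 (permutation p = 0.0344). Over the 11 arrays without the 3 that stood apart, r was 0.048.

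**Figure D3:**
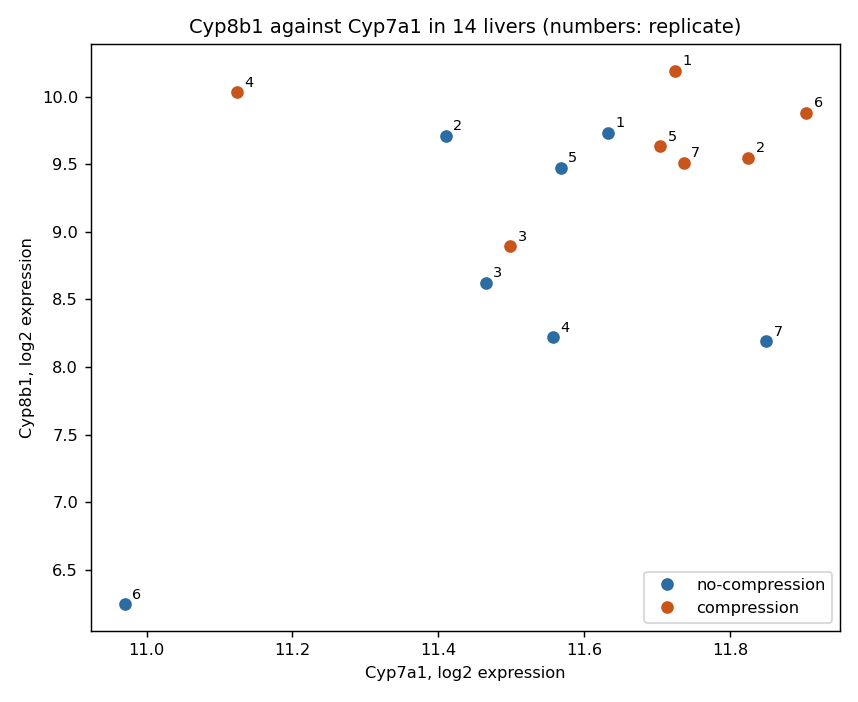
Log2 expression of Cyp8b1 (vertical axis) against that of Cyp7a1 (horizontal axis) in 14 livers, blue for no-compression and orange for compression, with the replicate number beside each point. No-compression replicate 6 lies alone at 10.97 and 6.25, and no-compression replicate 7 and compression replicate 4 lie at opposite corners of the remaining points.

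Other genes followed either of these enzymes more closely than they followed each other. Among 1069 genes with spread, the other members' correlations with Cyp8b1 over the 14 arrays were highest for Slc27a5 (r = 0.828), Slc27a2 (r = 0.784) and Baat (r = 0.782), and Cyp7a1 came 398th in that order. With no-compression replicates 3, 6 and 7 left out these were 0.292, 0.216 and -0.204 over 11 arrays, while Cyp27a1 (r = 0.662 over 14 arrays) and Cyp39a1 (r = 0.239) were at -0.712 and -0.706. The genes most like Cyp8b1 were Npc1, which exports cholesterol from lysosomes (r = 0.968), Dhdh, a dehydrogenase (r = 0.962), Fbxo21, an F-box protein (r = 0.930), Ppara, the fatty acid receptor (r = 0.929), and Vwa8 (r = 0.923). After subtraction of each group's mean Npc1, Dhdh and Fbxo21 stayed among the first 5, with Enpp5 and Car3 in place of the others. Without no-compression replicates 3, 6 and 7 the values were 0.872 for Npc1, 0.825 for Dhdh, 0.694 for Fbxo21, 0.627 for Ppara and 0.800 for Vwa8. Npc1 was at 9.16 ± 0.05 (SD, n = 7) in compressed mice and 8.92 ± 0.26 (SD, n = 7) in the others.
The genes most like Cyp7a1 were Hsd17b2, a steroid dehydrogenase (r = 0.789), Sqle, which oxidizes squalene in cholesterol synthesis (r = 0.786), Cd59a, an inhibitor of complement (r = 0.776), Rgn (r = 0.776) and Mmab, a vitamin B12 enzyme (r = 0.772). The same 5 genes came first after subtraction of each group's mean, with 0.859 for Rgn. With those 3 arrays left out they were at 0.644, 0.690, 0.836, 0.511 and 0.618 over 11 arrays. Sqle was at 8.58 ± 0.67 (SD, n = 7) in compressed mice and 8.51 ± 0.54 (SD, n = 7) in the others. These genes are the highest of 1069, the arrays share the mice that stood apart, and the correlations are given as a description with no test.

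Of 18 other enzymes and carriers of the pathway 16 were measured and 11 had spread, 8 with a higher and 3 with a lower mean, and 0 passed in limma in either direction. Their median log2 fold change was 0.061, and -0.050 without no-compression replicates 3, 6 and 7. Akr1c14, a hydroxysteroid dehydrogenase, had the largest positive value, at 11.22 ± 0.13 (SD, n = 7) in compressed mice and 11.03 ± 0.35 (SD, n = 7) in the others. Acnat2, a peroxisomal acyltransferase, had the largest negative one, at 10.10 ± 0.26 and 10.27 ± 0.33. Without the 3 arrays that stood apart the log2 fold change of Akr1c14 was -0.079 in place of 0.19, and that of Acnat2 was -0.082 in place of -0.17. The abundant Scp2, a sterol carrier and thiolase, differed by 0.014 on the log2 scale (standard error 0.0493), and Akr1c6 by 0.093 (standard error 0.112). Without these arrays both were lower with compression, at -0.050 and -0.073, and 5 of the 11 genes were higher and 6 lower. Cyp2c70, which makes the muricholic acids of mice, was picked with its value known and differed on the log2 scale by -0.11 (standard error 0.0673, adjusted p = 0.943 from limma). Amacr, Acot8, Cyp46a1, Ch25h and Star had no spread, which gives no information on a change.
Of 22 regulators all were measured and 10 had spread, 7 with a higher and 3 with a lower mean and 0 past the limit of limma. Nr1i3, the xenobiotic receptor CAR, had the largest positive value, with 10.85 ± 0.16 (SD, n = 7) against 10.35 ± 0.54 (SD, n = 7). Its log2 fold change was 0.50 (standard error 0.207, adjusted p = 0.943 from limma) and 0.079 without no-compression replicates 3, 6 and 7. Nr0b2, the repressor SHP, had the largest negative value, -0.12 (standard error 0.141, adjusted p = 0.979 from limma), and was at -0.25 without them. The FXR gene Nr1h4, chosen after its value was seen, was at 9.78 ± 0.18 (SD, n = 7) in compressed mice and 9.56 ± 0.18 (SD, n = 7) in the others (adjusted p = 0.943 from limma), and its log2 fold change was 0.10 in place of 0.23 without those replicates. Dbp, a transcription factor of the daily rhythm, was at 11.88 ± 0.11 and 11.75 ± 0.27, and in no-compression replicate 6, the mouse with the lowest Cyp7a1, it was at 11.22. Dbp differed by 0.13 on the log2 scale, and by 0.070 without the 3 arrays. The genes of HNF4A, LXR alpha, RXR alpha, the FGF receptor Fgfr4 and Mafg had no spread.
Of 13 transporters 10 had spread, 6 with a higher and 4 with a lower mean and 0 past the limit. Slco1a1, an organic anion carrier, was at 10.93 ± 0.28 (SD, n = 7) in compressed mice and 10.22 ± 1.67 (SD, n = 7) in the others. It was at 6.78 in no-compression replicate 6, in which Cyp8b1 was also lowest, and its log2 fold change was -0.35 in place of 0.71 without no-compression replicates 3, 6 and 7. Slc10a2, a bile acid importer, was the largest in the other direction, at 8.03 ± 0.33 and 8.50 ± 0.57, and its log2 fold change was -0.030 in place of -0.47 without these replicates. The uptake carrier Slc10a1 and the export pump Abcc2 had log2 fold changes of 0.11 and 0.092, and of -0.014 and 0.0042 without them, where the transporters split into 3 higher and 7 lower. Abcb11, the bile salt export pump, was chosen after its value was seen, at 10.50 ± 0.07 and 10.57 ± 0.06 (adjusted p = 0.943 from limma), a difference of -0.074 that was -0.11 without these arrays.

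Markers of other cells of the liver were compared because the samples were pieces of whole liver. Markers of cholangiocytes, T and NK cells, B cells and pancreas had 0 members with spread. Of 8 markers of Kupffer cells 3 had spread (Marco, Cd5l and Vsig4), and the summed level, which the other 5 hold nearly constant, ran from 11.38 to 11.47 in compressed mice and from 11.38 to 11.57 in the others. Marco, a scavenger receptor, was at most 7.59 with compression and at 7.33, 7.81 and 8.16 in no-compression replicates 3, 6 and 7. Cd5l was at most 9.66 with compression and at 9.54, 9.78 and 9.83 in these mice. Vsig4 differed by 0.00088 between the groups, and was at most 8.7065 with compression and at 8.6497, 8.6792 and 8.7097 in these mice. Marco and Cd5l were thus above the compression range in replicates 6 and 7, and not in replicate 3. Vsig4 was slightly above it in replicate 7 alone. All 3 had a higher mean with compression once no-compression replicates 3, 6 and 7 were left out. Their median log2 fold change was then 0.032 in place of -0.051. Below the compression mean were all 10 of the enzymes in replicate 6, 7 in replicate 7 and 9 in replicate 3. Among the remaining mice of both groups this count ran from 3 to 7, and it was 7 in no-compression replicate 5.
Of 4 measured neutrophil markers 3 had spread and a lower mean in the compression group, with a summed level of 7.80 to 7.92 against 7.78 to 8.24. Without no-compression replicates 3, 6 and 7 all 3 had a higher mean with compression. Their median log2 fold change was then 0.026 in place of -0.19. S100a8, a granulocyte protein, was at 5.50 to 5.65 with compression and at 5.81, 6.11 and 6.18 in no-compression replicates 3, 6 and 7. Its partner S100a9 was at most 6.09 with compression and at 6.08, 6.22 and 6.23 in them, and Retnlg was at most 6.05 with compression and higher in replicates 6 and 7 but not 3. Mpo had no spread. For sinusoidal endothelium 1 of 6 (Lyve1, difference -0.041), for stellate cells 1 of 6 (Dcn, 0.021) and for red cells 1 of 1 measured (Alas2, 0.0062) had spread. Without no-compression replicates 3, 6 and 7 the differences were 0.17 for Lyve1, 0.0051 for Dcn and -0.13 for Alas2. The part of these cells in the values of the enzymes was not tested.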

How the data were processed

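Liver RNA of 14 mice was measured on Clariom S mouse arrays. The authors quantified the CEL files with qFarms in R 3.4.4, a version given in the submitters' processing notes, and deposited log2 expression values. Factor models of this kind shrink probe sets with little shared variation, which can hide small differences. Of 29129 rows 6923 control rows were left out. A platform table gave 1 gene for 19572 of 22206 probe sets and none for 2634. Each of the 10 genes had 1 probe set.

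Groups came from the sample titles. The comparison used limma (version 3.58.1, under R 4.3.3) with lmFit and eBayes (Benjamini-Hochberg over 22206 probe sets, limit 0.05). Rank products, the test in the study's methods, was coded anew (Python 3.11.15, numpy 2.4.6, scipy 1.17.1; median over 49 random pairings, FDR limit 0.01), and used as an alternative because it does not scale folds to the spread between mice. Relations between genes were tested with exact permutations within groups and 100000 permutations over 14 arrays. Scripts were tested on simulated data. Arrays have no read depth, so precision is set by how many there are. No slide or scan date was used.

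The genes, the lists and the choice to leave out no-compression replicates 3, 6 and 7 were made with earlier results of these data known, so that the counts over them are no independent evidence. Besides the 10 genes, the text names for each other list the 2 genes with the highest mean, the largest difference in each direction and any gene past the limit, of which there were 0, and the 5 genes most like Cyp7a1 and Cyp8b1. Alb, S100a8 and Mpo of the marker lists were picked with their values known, and other genes are said to be chosen after their values were seen or are named as without spread. Promoters came from RefSeq (GRCm38.p6). Figures were drawn with matplotlib 3.10.9. The study's other measurements were not analysed here.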

Additional observations from a re-analysis of the deposited data

Results flagged for a closer look

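In 33 genes and both groups, 66 combinations in all, the lowest and highest mouse were compared with the range of its group of 7, and 6 values stood further from their neighbour than Dixon's limit for 7 values allows. Chance gives about 1 in 20 groups for genes picked without regard to these values. Part of the 33 genes were picked for their differences or correlations over these same arrays, so this rate does not hold for them. Of the enzymes, Akr1d1 was at 9.07 in compression replicate 3, with the next mouse at 9.67, and at 9.47 in no-compression replicate 3, with the next at 9.66. Slc27a5 was at 11.62 in no-compression replicate 6, with the next at 11.70. The same mouse was lowest for Slco1a1, at 6.78 with the next at 9.63, and for Dhdh, at 10.79 with the next at 10.94. Hsd17b2 was at 9.68 in compression replicate 4, with the next at 9.93. That mouse also had the lowest Cyp7a1 of the compression group, and Hsd17b2 was listed for its correlation with Cyp7a1. Cyp8b1 in no-compression replicate 6 did not pass the limit, since the values of its group were spread widely.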

How the results depend on the processing

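Over 22 alternatives of limma (another normalization, filters, variance models, array weights, the replicate number as a block, and arrays left out) 0 of the 10 genes and 0 probe sets passed, and the lowest adjusted p of an enzyme from limma was 0.360. Rank products called 562 probe sets and 6 of the 10 enzymes, 3 and 1 when run on the probe sets with an SD above 0.01 alone, and 30 and 0 with the 3 arrays that stood apart (no-compression replicates 3, 6 and 7) left out, the last 2 chosen after seeing the data. Of 220 fold changes of the enzymes 210 kept their direction. Without no-compression replicates 3, 6 and 7 it turned for Cyp27a1 (-0.070), Cyp7b1 (-0.25), Cyp39a1 (-0.061) and Baat (-0.0015). Cyp7b1 was at -0.028 without no-compression replicate 6, and ran from -0.028 to 0.22 with 1 array left out. Akr1d1 was at 0.049 with array weights and ran from -0.050 to 0.091 with 1 array left out. With 1 array left out, the fold changes also ran from 0.065 to 0.24 for Cyp7a1, 0.68 to 1.26 for Cyp8b1, 0.091 to 0.23 for Cyp27a1, 0.073 to 0.25 for Cyp39a1, -0.040 to -0.0079 for Hsd3b7, 0.12 to 0.20 for Slc27a2, 0.029 to 0.052 for Slc27a5 and 0.079 to 0.18 for Baat, with the lowest value without no-compression replicate 6 for these genes except Cyp39a1 (replicate 7). The relation of Cyp8b1 to Cyp7a1 ran from r = -0.072 to 0.702 with 1 array left out. The median log2 fold change ran from 0.37 to 0.72 for the classic pathway and from 0.073 to 0.23 for the alternative pathway. Causes of these shifts were not tested. The sample titles give same-numbered mice a shared number and no other link. Of 7 such pairs 2 had a correlation of their deviations over 0.1 (from -0.488 to 0.336), and 1 of 7 compression mice correlated best with its own number. So few pairs cannot show whether same-numbered mice were handled together. With the replicate block 0 probe sets and 0 enzymes were called, as without it. Averaging several probe sets of a gene was not run, because each enzyme had 1.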
